A study of Mus musculus with 12 samples.

Results

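Described here are 8 of the 47643 gene rows of the bulk RNA sequencing table, which hold ribosomal RNA (rRNA), transcripts that overlap or are often listed beside rRNA, and nuclear-retained transcripts. They were listed by name and chosen by their shares of gene counts in the RFPpos and RFPneg samples, which were already known, so the values of that contrast are given as a description without a test. *Gm42418* and *Gm26917* lie side by side at a locus on chromosome 17 where rRNA is annotated, *mt-Rnr1* and *mt-Rnr2* are the mitochondrial rRNAs, *Lars2* and *Cmss1* are protein-coding genes, and *Malat1* and *Neat1* are long noncoding RNAs kept in the nucleus. The samples came from 5 old male p16-3MR mice on a C57BL/6 background, aged 113, 115, 116, 116 and 116 weeks in the order of their numbers, 1 to 5. All of them carried the 3MR transgene, a red fluorescent protein (RFP) fused to Renilla luciferase and a truncated viral thymidine kinase, driven by the p16 promoter. From the brain of each mouse, cells were released with a cold-active protease, freed of myelin and sorted as viable nucleated cells with low RFP (RFPneg) or high RFP (RFPpos), which gave 5 RFPneg and 5 RFPpos samples paired by mouse. The RFPneg samples were therefore not cells without the transgene, and a sorted fraction could hold several cell types. The other 2 samples of the series, from single cells, were not analysed here.

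rRNA makes up most of the RNA of a cell. Most cytosolic rRNAs are cut from a long precursor made in the nucleolus by RNA polymerase I, and the mitochondrial rRNAs are cut from a transcript of the mitochondrial genome that also holds tRNAs and mRNAs. Cytosolic rRNA has no poly(A) tail and mitochondrial rRNA has only a short one, so neither is a designed target of a library primed with oligo-dT, as these 3′ libraries were. *Malat1* RNA gathers in nuclear speckles, bodies rich in splicing factors, and ends in a triple helix in place of a poly(A) tail. *Neat1* RNA is the scaffold of paraspeckles, bodies built from its long form and RNA-binding proteins.

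In GRCm38, *Gm42418* (ENSMUSG00000098178; chromosome 17, 39846958 to 39848788, plus strand) is annotated as a long intergenic noncoding RNA of 1 exon and 1831 bases. On the opposite strand lies *CT010467.1*, a gene model annotated as rRNA. Of the 50-base words of *Gm42418*, 94.9% occur, on the opposite strand, in transcripts of other genes, and that model held the most of them. Neither *CT010467.1* nor *AY036118*, a noncoding model on the same opposite strand, had a count in any sample. On that strand 100% of the 50-base words of *AY036118* occur in *CT010467.1*, and 48.6% of those of *CT010467.1* occur in *AY036118*. Reads that match both models may have been counted for neither, so the 0 sets no limit on their share. *Gm26917* (ENSMUSG00000097971; chromosome 17, 39843013 to 39846341, plus strand) lies on the same strand and ends 616 bases before *Gm42418*. *mt-Rnr1* (ENSMUSG00000064337; chromosome M, 70 to 1024) and *mt-Rnr2* (ENSMUSG00000064339; chromosome M, 1094 to 2675) are 69 bases apart on the plus strand of the mitochondrial genome. *Malat1* (ENSMUSG00000092341; chromosome 19, 5795690 to 5802672) and *Neat1* (ENSMUSG00000092274; chromosome 19, 5824708 to 5845478) are neighbours on the minus strand with 22035 bases between them.

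Since an oligo-dT primer pairs with runs of A, the 20 bases richest in A were found in each transcript sequence of GENCODE M21, and 5 of these stretches are shown with 5 bases on either side. The stretches are written 5′ to 3′ on the strand of the gene, and capitals mark runs of 3 or more A.
Gm42418 (chr17:39847162-39847191, plus strand): ctttgAAAAAAttagagtgttcAAAgcagg
mt-Rnr1 (chrM:720-749, plus strand): taagcAAAAgaatcAAAcatAAAAAcgtta
mt-Rnr2 (chrM:1483-1512, plus strand): ttgctAAAAAAAcaacAAAAtcAAAAAgta
Malat1 (chr19:5795975-5796004, minus strand): gctttAAAAAAAAAAAAgcAAAAgacgctg
Neat1 (chr19:5834093-5834122, minus strand): acaagaacAAAAAAcAAAgAAAAAAccaag

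The richest stretch of *mt-Rnr2* held 16 A in 20 bases, a number that 9.96% of the transcripts of like length reached. That of *mt-Rnr1* held 15, which 9.25% of its like-length transcripts reached, so both mitochondrial rRNAs stood in the A-rich part of the transcriptome. For *Malat1* the number was 17, reached by 25.1% of transcripts of like length, with a longest run of 12 A. *Neat1* also held 17, reached by 37.5% of only 64 transcripts of like length. *Gm42418* held 11, which 93.1% of its like-length transcripts reached, and it had a single run of 6 A, so it was poor in A. These are descriptions of the sequence. The counts hold no read positions, so where on each transcript the tags fell was not tested.

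The 8 transcripts together took 19.0, 18.5, 20.2, 23.2 and 19.4% of the gene counts in the RFPneg samples of mice 1 to 5, and 27.3, 22.4, 17.8, 18 and 24.8% in the RFPpos samples. Their sum was higher in RFPpos in 3 mice and lower in the other 2, mice 3 and 4, with means of 20.1% ± 1.86 (SD, n = 5) and 22.1% ± 4.18 (SD, n = 5), so the groups overlapped. The mean difference of 1.99 points was 0.429 points without mouse 1 and 3.79 points without mouse 4, and it turned to −0.185 points as a percent of all counts of the table, reads on no gene included. Nearly all of it lay in 4 rows. Ordered by mean share of counts, *mt-Rnr2* ranked 1, *Gm42418* ranked 2, *mt-Rnr1* ranked 3 and *Malat1* ranked 4 of all gene rows. By the same order *Neat1* ranked 783, *Lars2* 831, *Gm26917* 3307 and *Cmss1* 15279. These ranks are of counts, which were not divided by length.

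**Figure D1:**
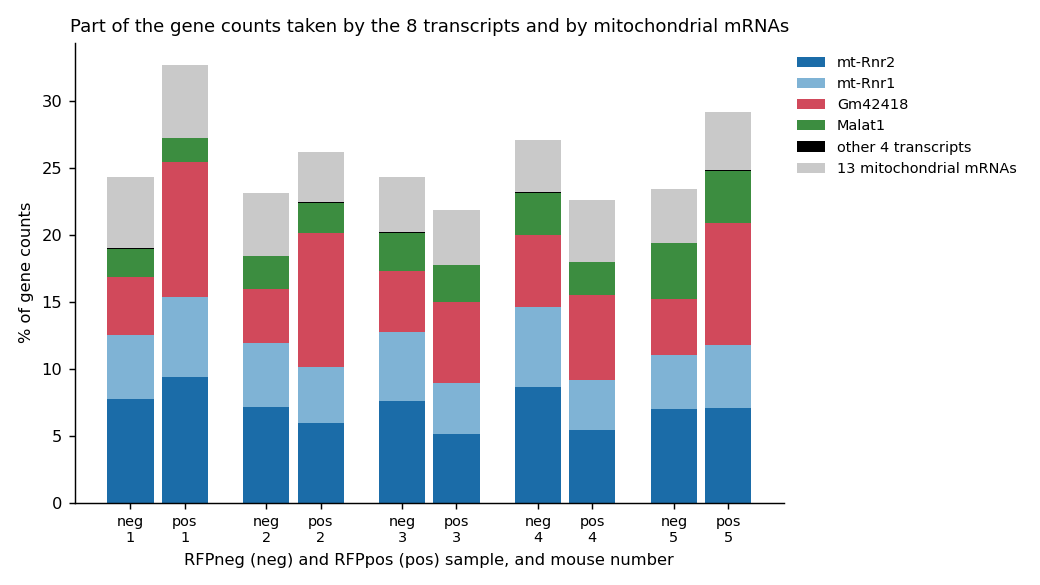
Stacked bars of the percent of gene counts (y axis, from 0) in the RFPneg and RFPpos sample of each mouse (x axis). The red segment, Gm42418, was taller in the RFPpos bar of every mouse, while the blue segments of mitochondrial rRNA were taller in RFPpos in mice 1 and 5 and shorter in mice 2, 3 and 4.

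*Gm42418* took a larger share in every RFPpos sample than in any RFPneg sample. It took 4.35, 4.07, 4.60, 5.39 and 4.21% of the gene counts in the RFPneg samples of mice 1 to 5. In the RFPpos samples it took 10.2, 10.1, 6.05, 6.33 and 9.13%. Every RFPpos value lay above every RFPneg value, as in 8.05% of the tested genes, and within the mice the RFPpos share was 1.17 times (mouse 4) to 2.47 times (mouse 2) the RFPneg share. The means were 4.52% ± 0.519 (SD, n = 5) and 8.34% ± 2.01 (SD, n = 5), and the fitted log2 fold change was 0.85 (standard error 0.20). The RFPpos samples fell into a lower pair, mice 3 and 4, and a higher set, mice 1, 2 and 5, a spread not seen in the RFPneg samples.

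The share of reads that were assigned to no gene was also higher in the RFPpos samples. It was 32.1 to 37.2% of all counts of the table in the RFPneg samples and 38.4 to 48.6% in the RFPpos samples, without overlap and higher in RFPpos in 5 of 5 mice. In the RFPpos samples of mice 1 to 5 it was 38.4, 42.1, 38.5, 39.8 and 48.6%, so that mice 2 and 5 were high and mice 3 and 4 low in both this share and *Gm42418*, while mouse 1 was high in *Gm42418* alone. With these reads in the denominator, *Gm42418* took 2.63 to 3.39% of all counts in RFPneg and 3.70 to 6.22% in RFPpos, again without overlap. The part of the unassigned reads in the result was not tested.

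*Gm26917*, the other transcript of that locus, was counted far less often. It had 14, 4, 11, 12 and 11 counts in the RFPneg samples of mice 1 to 5 and 1, 19, 18, 22 and 20 counts in the RFPpos samples. It was higher in RFPpos in 4 of 5 mice, and mouse 1 went the other way with a single count, whose exact 95% Poisson interval is 0.0253 to 5.57 counts. The fitted log2 fold change was 0.63 (standard error 0.52), and 1.28 without mouse 1. Relative to *Gm42418* it gave 0.501 to 1.81 counts per 1000 in RFPneg and 0.0443 to 1.39 in RFPpos, so the groups overlapped. This ratio was higher in RFPpos in 4 of 5 mice and lower in mouse 1. Its mean difference was −0.0675, and 0.358 without mouse 1, from 1 to 22 counts of *Gm26917* in a sample.

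The mitochondrial rRNAs, which are the RNA core of the small (*mt-Rnr1*) and the large (*mt-Rnr2*) mitochondrial ribosome subunit, overlapped between the populations. *mt-Rnr2* took 7.78, 7.17, 7.59, 8.65 and 7.0% of the gene counts in the RFPneg samples of mice 1 to 5. In the RFPpos samples it took 9.36, 5.93, 5.10, 5.44 and 7.03%. It was thus higher in RFPpos in mice 1 and 5 and lower in mice 2, 3 and 4, and the RFPpos samples spread more widely, with a coefficient of variation of 26.2% against 8.44%. *mt-Rnr1* took 4.71, 4.73, 5.16, 5.94 and 4.01% in RFPneg and 5.98, 4.19, 3.84, 3.75 and 4.74% in RFPpos, with the same direction as *mt-Rnr2* in each mouse. As a percent of all counts of the table, reads on no gene included, mouse 5 turned to lower in RFPpos. It then went from 4.37 to 3.59% for *mt-Rnr2* and from 2.50 to 2.42% for *mt-Rnr1*, so only mouse 1 was higher. The fitted log2 fold changes were −0.25 (standard error 0.18) for *mt-Rnr2* and −0.14 (standard error 0.19) for *mt-Rnr1*, and the latter was 0.01 without mouse 4.

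**Figure D2:**
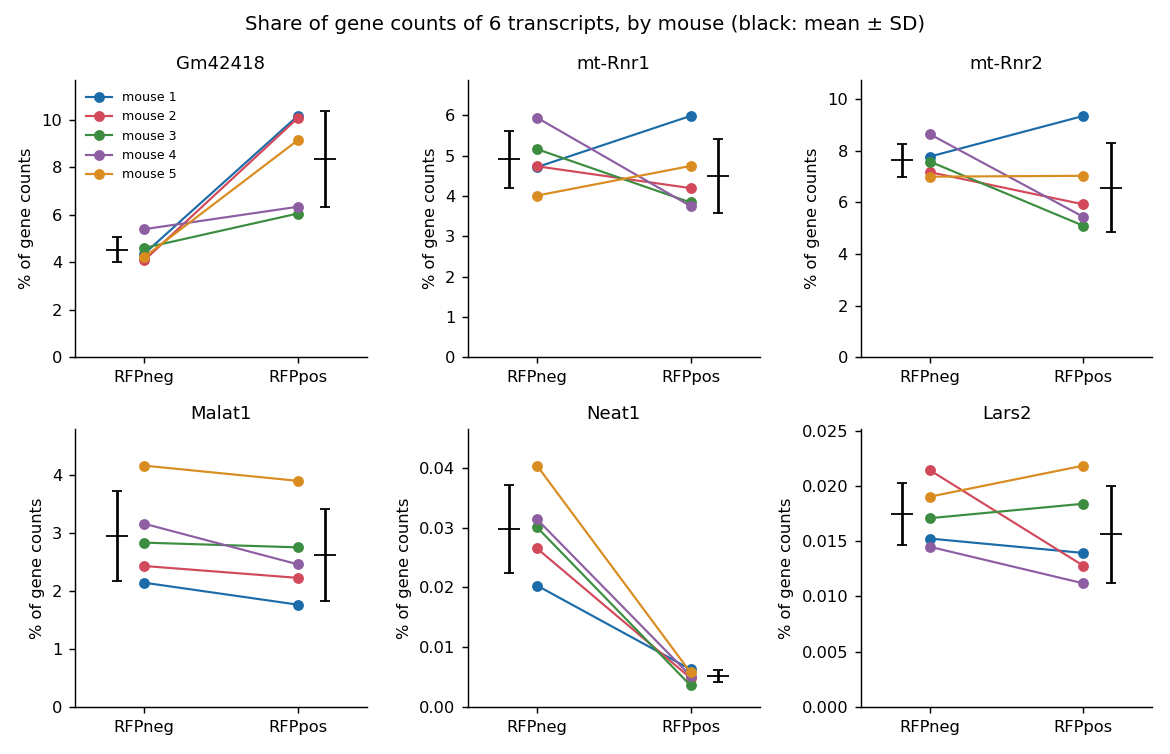
Percent of gene counts (y axes, from 0) of 6 transcripts in the RFPneg and RFPpos sample of each mouse (coloured lines), with the mean ± SD of the 5 samples in black. Gm42418 and Neat1 separated the populations, 6.05 to 10.2% against 4.07 to 5.39% and 0.00359 to 0.00629% against 0.0203 to 0.0404%, and the other transcripts overlapped.

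The ratio of the mitochondrial rRNAs to each other varied little, with coefficients of variation of 7.77% in RFPneg and 6.06% in RFPpos. It was 0.606, 0.660, 0.680, 0.687 and 0.572 counts of *mt-Rnr1* per count of *mt-Rnr2* in the RFPneg samples and 0.639, 0.707, 0.753, 0.689 and 0.674 in the RFPpos samples. The RFPpos value was higher in 5 of 5 mice, by 1.00 to 1.18 times, and the groups overlapped, with means of 0.641 ± 0.0498 (SD, n = 5) and 0.693 ± 0.0420 (SD, n = 5). No other tested gene lay as close to *mt-Rnr2* in its pattern over the samples as *mt-Rnr1* did. The measure was the root mean square difference of log2 CPM (the counts of a gene scaled to the gene counts of its sample), each gene centred on its own mean over the 10 samples. It was 0.107 for *mt-Rnr1*, 0.143 for *Zfp280d*, 0.152 for *Alg1* and 0.160 for *Tmod3*, with a median of 0.588 over 4203 genes.

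Set against each other, *Gm42418* and *mt-Rnr2* changed places. There were 0.559, 0.568, 0.606, 0.623 and 0.602 counts of *Gm42418* per count of *mt-Rnr2* in the RFPneg samples of mice 1 to 5. In the RFPpos samples there were 1.09, 1.70, 1.19, 1.16 and 1.30. *Gm42418* was thus the less counted in every RFPneg sample and the more counted in every RFPpos sample, and the ratio differed by 1.87 to 2.99 times within the mice. In RFPneg this ratio was nearly constant, with a coefficient of variation of 4.55%, although the shares themselves varied by 11.5% and 8.44%. Taken against *mt-Rnr1*, the ratio was 0.860 to 1.05 in RFPneg and 1.58 to 2.40 in RFPpos, also without overlap.

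**Figure D3:**
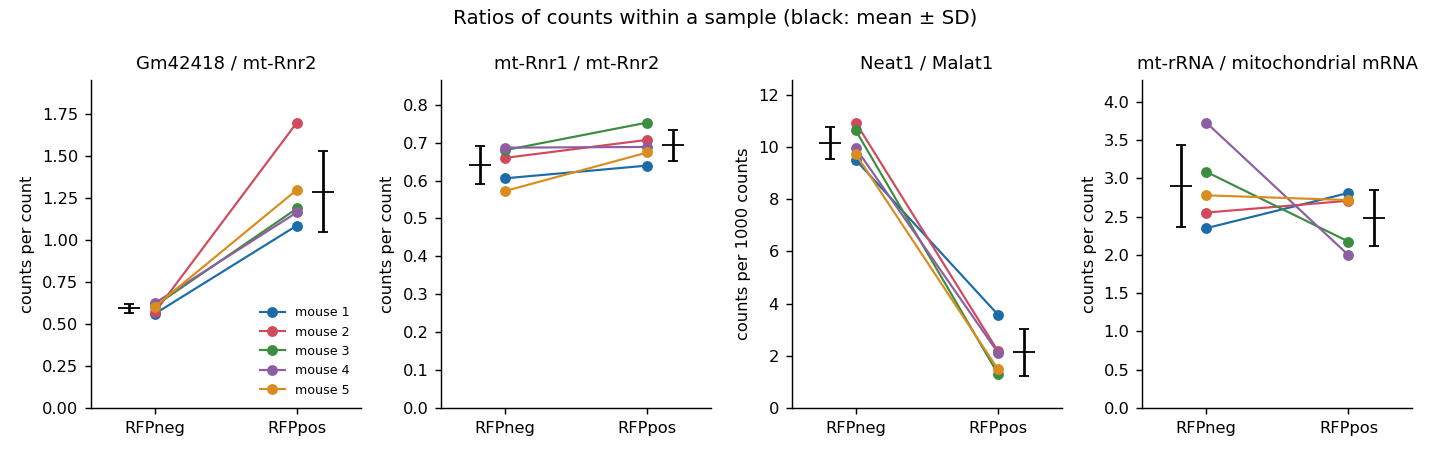
Ratios of counts within a sample (y axes, from 0) in the RFPneg and RFPpos sample of each mouse (coloured lines), with the mean ± SD of the 5 samples in black. Gm42418 per mt-Rnr2 lay between 0.559 and 0.623 in RFPneg and between 1.09 and 1.70 in RFPpos, Neat1 per 1000 Malat1 between 9.50 and 10.9 and between 1.31 and 3.57, and the other plotted ratios overlapped.

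The mitochondrial mRNAs, which code for subunits of the respiratory chain and come from the same genome, took like shares in both populations. The 13 mRNAs took 4.40% ± 0.596 (SD, n = 5) of the gene counts in RFPneg and 4.45% ± 0.648 (SD, n = 5) in RFPpos. Of the 7 that could be tested none passed edgeR's quasi-likelihood test at an adjusted p under 0.05 over all genes, which 21.8% of all genes tested passed in either direction, and the median of their log2 fold changes was −0.03, equal to the −0.03 of all genes tested. At an unadjusted p under 0.05 the number was also 0, as it was with the likelihood ratio test, DESeq2 and limma voom, but on the scale of the microglia genes, which lowers all genes, 7 were called lower. The most counted were *mt-Nd4*, at 0.16 on the log2 scale (adjusted p = 0.563 from edgeR), and *mt-Nd2*, at 0.01 (adjusted p = 0.978 from edgeR), both subunits of complex I. Counts of mitochondrial rRNA per count of these mRNAs were 2.35, 2.55, 3.08, 3.73 and 2.78 in RFPneg and 2.81, 2.71, 2.17, 2.00 and 2.71 in RFPpos, higher in RFPpos in mice 1 and 2 and lower in mice 3, 4 and 5. Nearly all 50-base words of *mt-Co2*, *mt-Atp6*, *mt-Co3*, *mt-Nd3* and *mt-Nd4l*, from 98 to 100% of them, also occur in nuclear pseudogenes, and these 5 genes had 4, 5, 2, 54 and 0 counts in all. *mt-Co1* shares 51.1% of its words and *mt-Nd4* 62.2%, with 3652 and 31369 counts, while *mt-Atp8* shares none and had 0 counts. The levels of the genes that share words are uncertain. *mt-Rnr1* shares no such word with another gene on its strand and *mt-Rnr2* shares 1.04% of them.

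Of the 22 mitochondrial tRNAs, which sit between the rRNA and mRNA genes, 14 had a count and 2 could be tested. Neither passed the test, nor did either at an unadjusted p under 0.05 or with the other tools, while *mt-Tm* was called lower on the scale of the microglia genes, at −1.58 (adjusted p = 0.00116 from edgeR). With TMM the values were −0.52 for *mt-Tm* (adjusted p = 0.299 from edgeR) and 0.39 for *mt-Ti* (adjusted p = 0.618 from edgeR) on the log2 scale. *mt-Tm* was at −0.74 without mouse 1 and −0.28 without mouse 2, called in neither. Of 39 genes for the synthesis and processing of mitochondrial rRNA, 5 were counted often enough, and 0 of them passed, with 1 at an unadjusted p under 0.05, *Lrpprc*. *Lrpprc* and *Slirp*, partners that bind and stabilise mitochondrial mRNA, had log2 fold changes of 0.80 (adjusted p = 0.0639 from edgeR) and −0.71 (adjusted p = 0.164 from edgeR). *Lrpprc* passed with the likelihood ratio test (adjusted p = 0.0418), with limma voom (adjusted p = 0.0226) and with all genes that had a count (adjusted p = 0.0333 from edgeR), not with DESeq2 (adjusted p = 0.183), and stood at −0.25 on the scale of the microglia genes. Both values moved with single mice. *Lrpprc* was at 1.147 without mouse 1 (adjusted p = 0.00352 from edgeR) and 0.50 without mouse 3, and *Slirp* at −1.12 without mouse 4 (adjusted p = 0.035 from edgeR) and −0.40 without mouse 5. On the scale of the microglia genes *Slirp* was called too, at −1.76 (adjusted p = 0.00044 from edgeR).

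*Lars2*, the mitochondrial leucyl-tRNA synthetase (ENSMUSG00000035202; chromosome 9, 123366927 to 123462666, plus strand), had 27, 42, 71, 36 and 57 counts in the RFPneg samples of mice 1 to 5 and 31, 37, 41, 28 and 53 counts in the RFPpos samples. Its share was 0.0145 to 0.0214% in RFPneg and 0.0112 to 0.0218% in RFPpos, so the RFPneg range lay inside the RFPpos range. It was higher in RFPpos in 2 mice and lower in 3, and the fitted log2 fold change was −0.18 (standard error 0.22). As a percent of all counts of the table, reads on no gene included, *Lars2* was lower in RFPpos in every mouse. Mouse 3 then went from 0.0115 to 0.0112% and mouse 5 from 0.0119 to 0.0111%. Mouse 2, which had the greatest within-mouse ratio for *Gm42418*, had the smallest for *Lars2*, 0.596. Of 18 other genes for mitochondrial aminoacyl-tRNA synthetases, only *Iars2*, the isoleucyl enzyme, could be tested, at 0.53 on the log2 scale (adjusted p = 0.424 from edgeR).

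*Cmss1*, named for the small ribosomal subunit (ENSMUSG00000022748; chromosome 16, 57302000 to 57606864, minus strand), was hardly counted. There were 3 counts in all, 1 each in the RFPneg samples of mice 3 and 5 and in the RFPpos sample of mouse 3, and it was not tested. In a sample with 0 counts a share of up to 0.00169% of gene counts, in the smallest library, is allowed. *Filip1l*, which overlaps it on the opposite strand, had 66 counts in RFPneg and 79 in RFPpos, and stood at 0.37 on the log2 scale (adjusted p = 0.504 from edgeR). In their spliced transcripts *Lars2* and *Cmss1* share at most 14 bases in a row with *Gm42418*, *Gm26917* or the mitochondrial rRNAs, on either strand. A transcript of *Gm15564*, described further on, holds 0.0780% of the 50-base words of *Lars2*. The introns of *Lars2* and *Cmss1* were not examined here, so reads there that match rRNA could not be told from their own.

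*Malat1* varied by mouse more than by population. It took 2.14, 2.43, 2.83, 3.15 and 4.15% of the gene counts in the RFPneg samples of mice 1 to 5 and 1.76, 2.22, 2.75, 2.45 and 3.89% in the RFPpos samples. It was lower in RFPpos in 5 of 5 mice, with differences of −0.698 to −0.0809 percentage points, but mouse 5 was the highest and mouse 1 the lowest in both populations, and the groups overlapped. The means were 2.94% ± 0.781 (SD, n = 5) and 2.61% ± 0.80 (SD, n = 5), with a fitted log2 fold change of −0.18 (standard error 0.15). The genes whose pattern over the 10 samples was most like it were *Tshz1* and *Pnisr*, at root mean square differences of 0.147 and 0.174 on the log2 scale, against a median of 0.612 over 4203 genes.

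*Neat1* had the largest fitted change of the 7 transcripts fitted. It had 36, 52, 125, 78 and 121 counts in the RFPneg samples of mice 1 to 5 and 14, 14, 8, 13 and 14 counts in the RFPpos samples, which is 412 counts against 63. The share was 0.0203 to 0.0404% in RFPneg and 0.00359 to 0.00629% in RFPpos, with every RFPpos value below every RFPneg value, as in 7.93% of the tested genes. The means were 297 CPM ± 73.4 (SD, n = 5) and 51.3 CPM ± 10.3 (SD, n = 5), and the fitted log2 fold change was −2.52 (standard error 0.25). With 8 to 14 counts in each RFPpos sample, differences between the mice within RFPpos were not detectable at this depth.

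Per 1000 counts of its neighbour *Malat1*, *Neat1* gave 9.50, 10.9, 10.6, 9.96 and 9.72 counts in the RFPneg samples of mice 1 to 5 and 3.57, 2.18, 1.31, 2.11 and 1.48 in the RFPpos samples. In RFPneg the ratio had a coefficient of variation of 6.01%, while the share of *Neat1* alone had one of 24.7% and that of *Malat1* one of 26.6%. The RFPneg samples ranked alike for both transcripts, with mouse 1 lowest and mouse 5 highest. In RFPpos the ratio was lower in 5 of 5 mice, 0.123 to 0.376 times the RFPneg value, and its coefficient of variation was 41.9%. The counting error of *Neat1* in each RFPneg sample is larger than the first of these coefficients and much of the last could be counting error, so the coefficients of the ratio were not compared. The genes most like *Neat1* in pattern were *Eogt*, *Sgms1* and *Slc6a6*, at root mean square differences of 0.253, 0.324 and 0.342 on the log2 scale, against a median of 1.28 over 4203 genes.

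Of the 7 transcripts that passed the filter on low counts, *Gm42418* was among the 427 of 4210 genes called higher in RFPpos (10.1%) and *Neat1* among the 489 called lower (11.6%), by edgeR's quasi-likelihood test over all genes. Nothing is read from these calls, or from the lack of overlap above, since the transcripts were chosen with this contrast known. *Gm26917* passed the filter with 2 RFPneg and 4 RFPpos samples at the CPM required, and *Cmss1* did not pass it. The genes of most similar pattern to *Gm42418* over the 10 samples were *Ptpre*, *Arhgap5* and *Phf14*, at root mean square differences of 0.210, 0.213 and 0.213 on the log2 scale, against a median of 0.687. They were nearer to it than the mitochondrial rRNAs, at 0.522 for *mt-Rnr1* and 0.575 for *mt-Rnr2*.

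The shares of several cell type markers also differed between the populations. The 20 microglia core genes took 1.91 to 2.88% of the gene counts in RFPneg and 4.07 to 5.28% in RFPpos, and 20 of 20 were called higher, with a median log2 fold change of 1.11. The 15 endothelial markers took 0.264 to 1.06% and 0.0207 to 0.0663%, with 13 of 13 tested called lower, and the 12 oligodendrocyte markers 0.681 to 2.08% and 0.100 to 0.395%, with 10 of 11 tested called lower. Among these, *Esam*, *Egfl7*, *Itm2a*, *Abcb1a*, *Ly6c1*, *Ermn* and *Cldn11* reached the 40.7 CPM of the filter in no RFPpos sample. They were tested only through RFPneg, where they were high, so nothing is read from their calls. *Pltp*, *Pecam1*, *Flt1*, *Kdr*, *Ly6a*, *Mal*, *Mobp*, *Mag* and *Olig1* reached the filter in every RFPneg sample but averaged 11.7 to 38.5 CPM in RFPpos. Their calls are not read either. The 12 astrocyte markers overlapped, at 0.616 to 0.957% and 0.124 to 0.907%, with 3 of 11 tested called lower (11.6% of all genes tested). The RFPpos sample of mouse 1, the highest in *Gm42418*, stood apart with the lowest astrocyte share, and the other 4 lay between 0.523 and 0.907%. The mean difference in the astrocyte share was −0.107 percentage points, −0.0103 without mouse 1, −0.0249 without mouse 2 and −0.184 without mouse 4. No marker of these 4 lists was at 0 in either population, while 5 of 8 lymphocyte markers, 3 of 11 mural and fibroblast markers, 2 of 6 choroid plexus markers, 1 of 10 neuron markers and 1 of 5 red blood cell markers were at 0 counts in RFPpos and none in RFPneg. Red blood cell markers took 0.0394 to 0.194% in RFPneg and 0 to 0.0117% in RFPpos. In sums over many cells, fewer cells of a type and less RNA per cell cannot be told apart, and the part of the cell types in the values of *Gm42418* and *Neat1* was not tested.

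The sign of *Gm42418* depended on the scale on which the samples were compared. With library sizes, median-of-ratios factors or library sizes without the 8 transcripts in place of TMM, the log2 fold change of *Gm42418* was 0.83 to 0.86 and that of *Neat1* −2.54 to −2.51. Scaled to the summed counts of the 20 microglia genes, the median of all genes moved from −0.03 to −1.08, *Gm42418* was at −0.20 (standard error 0.22), *Gm26917* at −0.41 and *Neat1* at −3.56 (standard error 0.27). Relative to the median of all genes, *Gm42418* stood at 0.88 on both scales, above 91.0% of the tested genes with TMM and above 90.7% with the microglia genes. *Neat1* stood above 3.06% and 3.11% of them.

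**Figure D4:**
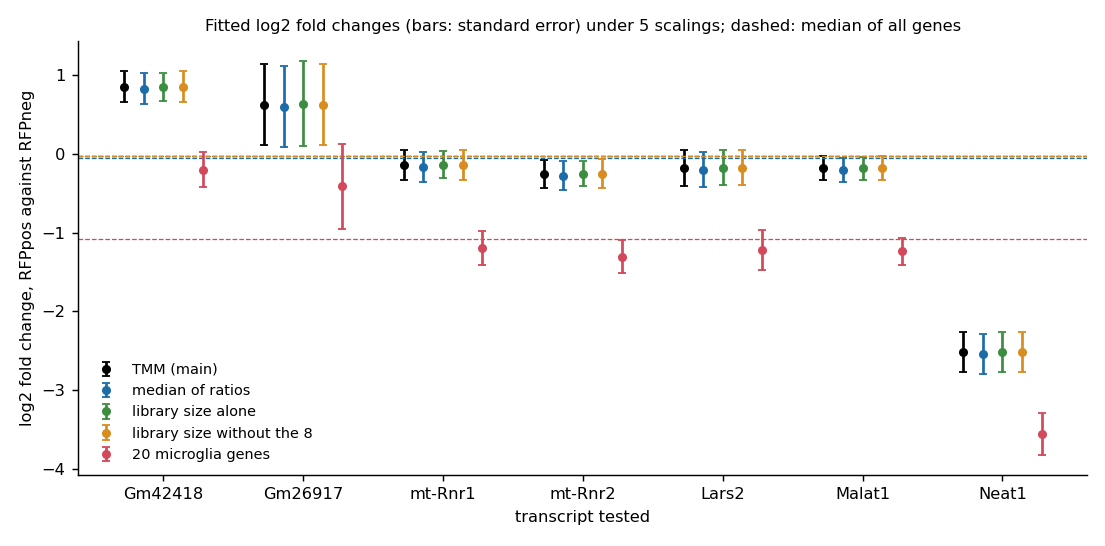
Fitted log2 fold changes of 7 transcripts, RFPpos against RFPneg (y axis), with bars of 1 standard error, under 5 scalings (colours); dashed lines are the medians of all genes tested. Under the microglia scaling every transcript and the median moved down together, to −0.20 for Gm42418, −3.56 for Neat1 and −1.08 for the median.

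Of 20 other gene models listed as cytosolic rRNA or repeats, 16 had a row, 4 had a count and 1, *Gm15564*, could be tested (annotated as antisense; ENSMUSG00000086324; chromosome 16, 35966752 to 35983230, minus strand). *Gm15564* had 43.9 CPM ± 15.1 (SD, n = 5) in RFPneg and 127 CPM ± 91.6 (SD, n = 5) in RFPpos. It rose by 1.34 on the log2 scale (adjusted p = 0.0101 from edgeR) and was higher in 4 of 5 mice. The call was lost without mouse 1 (adjusted p = 0.0667 from edgeR), whose RFPpos sample was the highest at 283 CPM, and on the scale of the microglia genes, at 0.30 (adjusted p = 0.505 from edgeR). The spliced *Gm15564* transcript shares at most 13 bases in a row with *Gm42418*, *Gm26917* or the mitochondrial rRNAs.

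For the genes that make and process cytosolic rRNA, the median log2 fold change was 0.01, beside −0.03 for all genes. Of 64 listed, 15 could be tested by edgeR, 0 were called higher and 1 lower (10.1 and 11.6% of all genes tested), and at an unadjusted p under 0.05 there were 1 and 2. None was called higher by DESeq2 or limma voom. The gene that fell was *Dkc1*, dyskerin, which places pseudouridines in rRNA, at −1.26 (adjusted p = 0.0056 from edgeR). Its levels were 109 CPM ± 22.0 (SD, n = 5) in RFPneg and 48.3 CPM ± 28.8 (SD, n = 5) in RFPpos, lower in 5 of 5 mice.

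The protein partners of *Neat1* had a median log2 fold change of −0.09. Of 16 paraspeckle protein genes tested of 31 listed, edgeR called 0 higher and 1 lower (10.1 and 11.6% of all genes tested), as at an unadjusted p under 0.05, and DESeq2 called 0. The gene was *Hnrnph3*, a splicing regulator, at −0.88 (adjusted p = 0.0215 from edgeR). The *Hnrnph3* call was lost with DESeq2 (adjusted p = 0.0728), with all genes that had a count (adjusted p = 0.0943 from edgeR), without mouse 3 (adjusted p = 0.0848 from edgeR) and without mouse 4 (adjusted p = 0.0784 from edgeR). Of 29 genes for proteins of the nuclear speckles, the site of *Malat1*, tested of 33 listed, edgeR called 0 higher and 1 lower (10.1 and 11.6% of all genes tested), with 2 and 5 at an unadjusted p under 0.05, and limma voom 1 and 3. The list median was −0.06. The gene that fell was *Srsf7*, a splicing factor, at −0.85 (adjusted p = 0.0121 from edgeR), and the call was lost without mouse 5 (adjusted p = 0.055 from edgeR) and with all genes that had a count (adjusted p = 0.0551 from edgeR).

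Among other long noncoding RNAs, 12 of 55 listed could be tested, of which 1 was called higher and 4 lower (10.1 and 11.6% of all genes tested), with a median log2 fold change of −0.89 beside −0.03 for all genes. The filter took in some of these genes, such as *Sox2ot* and *Snhg3* below, wholly or mainly through RFPneg, so nothing is read from that median. At an unadjusted p under 0.05 there were 1 higher and 7 lower. The likelihood ratio test called 1 and 6, DESeq2 0 and 4 and limma voom 1 and 5. With each mouse left out in turn, 0 to 1 were called higher and 2 to 5 lower. *Sox2ot*, the transcript that overlaps the neural stem cell gene Sox2, fell by 3.26 on the log2 scale (adjusted p = 0.00062 from edgeR). It had 104 CPM ± 28.7 (SD, n = 5) in RFPneg and 11.1 CPM ± 14.3 (SD, n = 5) in RFPpos, from 132 counts against 13, and the size of its change was −4.34 without mouse 5 and −4.17 with DESeq2. Its highest RFPpos sample was at 32.9 CPM, below the 40.7 CPM of the filter. It was thus tested only through RFPneg, where it was high, and nothing is read from its call, 1 of the 4 lower. *Gas5*, *Snhg3* and *Zfas1*, which host small nucleolar RNAs, had log2 fold changes of −0.77, −1.52 and −1.01 (adjusted p = 0.00445, 0.0114 and 0.0124 from edgeR), lower in 5 of 5 mice each. *Snhg3* reached the filter in every RFPneg sample (52.3 to 84.2 CPM) but averaged 24.7 CPM in RFPpos (13.8 to 49.4). Nothing is read from its call either. The *Snhg3* call was lost without mouse 2 (adjusted p = 0.0551 from edgeR) and without mouse 3 (adjusted p = 0.0708 from edgeR), and the *Zfas1* call without mouse 3 (adjusted p = 0.0582 from edgeR). *Kcnq1ot1*, a nuclear RNA of an imprinted cluster, rose by 0.76 (adjusted p = 0.0328 from edgeR), higher in 5 of 5 mice, but stood at −0.29 on the microglia scale. That call was lost with DESeq2 (adjusted p = 0.118), without mouse 2 (adjusted p = 0.101 from edgeR), without mouse 3 (adjusted p = 0.0848 from edgeR) and without mouse 5 (adjusted p = 0.176 from edgeR). The log2 fold change of *Kcnq1ot1* was 0.73 with DESeq2, 0.72 without mouse 2 and 0.79 without mouse 3, but 0.48 without mouse 5. Of the 5 tested genes that overlap or lie beside the 8 transcripts, 0 passed edgeR's quasi-likelihood test, with 1 at an unadjusted p under 0.05, 1 called lower by the likelihood ratio test and 0 called by DESeq2 or limma voom, and the median was −0.18. The gene at that unadjusted p was *Limd1*, beside *Lars2* and named after its values were seen, at −1.20 (adjusted p = 0.0937 from edgeR), with 75 counts in RFPneg and 30 in RFPpos and lower in 4 of 5 mice. *Slc25a45*, near *Malat1* and *Neat1*, was at −0.09 (adjusted p = 0.891 from edgeR).

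**Figure D5:**
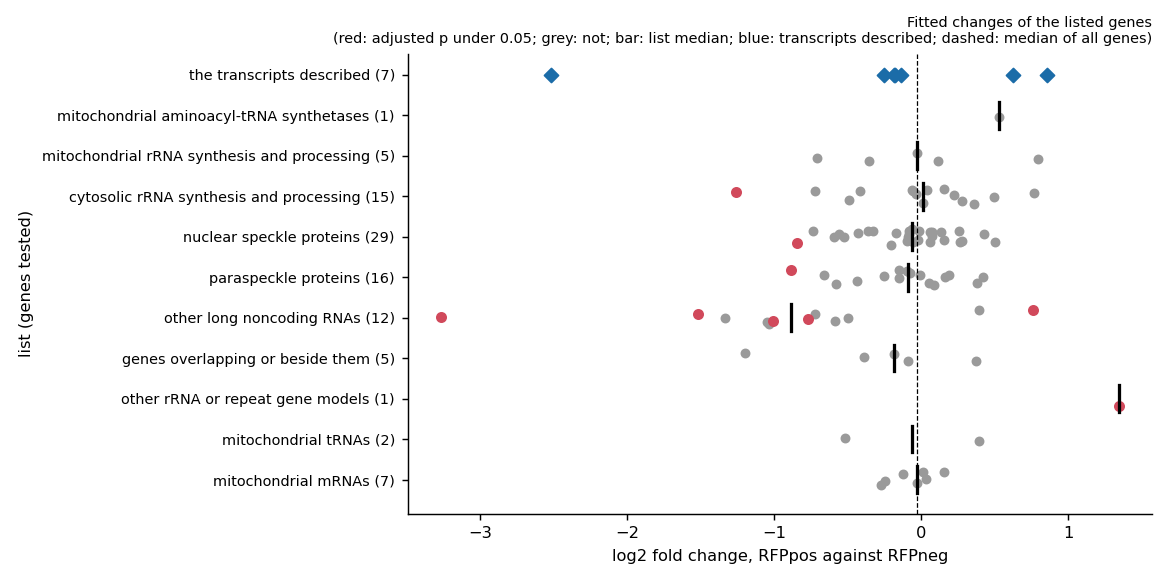
Fitted log2 fold changes, RFPpos against RFPneg (x axis), of the tested genes of 10 lists and of the 7 transcripts described (rows, with the number tested), where red points passed the test and black bars are list medians. Most list medians lay near the dashed line, the median of all genes at −0.03. The long noncoding RNAs had the lowest, −0.89, which is not read, since some of them passed the filter wholly or mainly through RFPneg.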

How the data were processed

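The data are bulk RNA sequencing of 10 samples, 1 RFPneg and 1 RFPpos from each of 5 mice. The authors made QuantSeq 3′ FWD libraries, processed the reads with the Lexogen UMI pipeline and deposited raw counts per gene and sample. The aligner and annotation of the bulk data are not given in the sources used here. Rows for reads on no gene and ambiguous reads, 32.1 to 48.6% and 0.295 to 0.436% of all counts, stayed out of library sizes and tests. Between 177287 and 415834 counts fell on genes. Symbols were found for 47224 of 47643 gene rows in GENCODE M21 on GRCm38, which gave positions and transcript sequences. The 8 transcripts and all gene lists were chosen with earlier results of these data known.

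Shares are percent of gene counts. Counts were fitted with edgeR 4.0.16 in R 4.3.3 (TMM, quasi-likelihood test, mouse as a block) for genes that reached 40.7 CPM, equal to 10 counts in the median library, in at least 5 samples and 15 counts in all, which left 4210. Calls were made at a Benjamini-Hochberg adjusted p under 0.05. Separate alternatives were edgeR's likelihood ratio test, the kind of test the study used, a call that also needed an absolute log2 fold change above 1, DESeq2 1.42.0 and limma voom 3.58.1. The study's own filter on low genes was not repeated. Other alternatives were 4 scalings, no filter, no block and each mouse left out. The scripts were tested on simulated data. The pairing comes from the methods and the mouse numbers of the labels. Within mice, the deviations of the samples from their group means correlated at 0.22, −0.04, 0.14, −0.01 and 0.02. Each mouse gave 1 RFPneg and 1 RFPpos sample. With mouse as a block, p-values measure the difference within mice against its spread over these 5 mice. Intervals and limits at 0 counts, taken as 3 counts, cover counting error only. Named genes of a list were up to 4 called in each direction with the smallest p, or the 2 with the highest mean CPM where none was called. One of these, *Gars*, was not tested. For pattern likeness the 3 nearest tested genes were named, except 1 that is not reported here. Strand handling of the counts is not stated.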

Additional observations from a re-analysis of the deposited data

Results flagged for a closer look

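Of 42 sets of 5 values examined, 2 held a sample far from the others by Dixon's test. Chance alone would give about 2.1 in independent sets, but these sets include sums and ratios of the same transcripts. The RFPpos sample of mouse 1 had *Gm26917* at 0.000449% of gene counts, which is 1 count, while the other RFPpos samples lay between 0.00656 and 0.00878%. *Gm42418*, which lies beside it, was at 10.2% in the same sample, the highest share of any sample. The RFPpos sample of mouse 3 had *Cmss1* at 0.000448%, again 1 count, where the other 4 had 0. Any single count beside 4 zeros is flagged by this test, so nothing is read from that flag.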

How the results depend on the processing

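The values depend most on the scale. Scaled to the 20 microglia genes, 14 genes were called higher and 2930 lower (427 and 489 with TMM), 0 and 83 genes of the lists (2 and 7 with TMM), and the log2 fold changes were −0.20 for *Gm42418*, which changed sign, −1.19 for *mt-Rnr1*, −1.31 for *mt-Rnr2*, −1.22 for *Lars2*, −1.24 for *Malat1* and −3.56 for *Neat1*, since that scale lowers all genes by construction. With the fold threshold of 1 as well, 242 genes were called higher, and 1 and 4 genes of the lists. With all genes that had a count, 834 genes were called lower, and 4 and 11 genes of the lists. Of the list genes, DESeq2 called 1 higher, limma voom 4 higher and the likelihood ratio test 12 lower, and the cause was not tested. Without the replicate block 3 genes of the lists were called higher and 8 lower. Of the tested list genes named here, leaving aside *Limd1*, which was not examined there, only *Lrpprc* changed its call (adjusted p = 0.0498 from edgeR). No direction of the 7 transcripts changed, and the log2 fold changes without the block were 0.89 for *Gm42418* and −2.54 for *Neat1*. With each mouse left out in turn, they ranged from 0.75 to 1.03 for *Gm42418*, −2.71 to −2.38 for *Neat1*, −0.26 to 0.01 for *mt-Rnr1*, −0.38 to −0.13 for *mt-Rnr2*, −0.22 to −0.12 for *Malat1*, −0.30 to −0.03 for *Lars2* and 0.37 to 1.28 for *Gm26917*, and the genes of the lists called ranged from 1 (without mouse 2, 3 or 5) to 2 higher and from 4 (without mouse 3) to 12 (without mouse 1) lower. *Lars2*, *Gm26917* and *Neat1* rest on few counts, which limits their precision.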
